A study of Homo sapiens with 2 samples.

Results

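The olfactory receptor genes of human chromosome 11 were examined in CAMA-1, an estrogen receptor-positive luminal breast cancer cell line. Members were chosen by name alone, as protein-coding genes of GENCODE release 44 on chromosome 11 (hg38) whose symbol is OR, a family number, letters for the subfamily and a final number. This gave 172 genes of the 20033 protein-coding genes of the annotation, and 6 further protein-coding genes with related names that end in a letter were left out. Chromatin accessibility had been measured by ATAC-seq, in which the transposase Tn5 inserts adapters into open chromatin, in 2 biological replicates of 50000 untreated CAMA-1 cells each, grown in adherent culture after long-term passage. Both replicates belong to a single condition, so no groups of samples were compared, and shares and densities are given per replicate.

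Olfactory receptors are G protein-coupled receptors that bind odorants on the cilia of olfactory sensory neurons, where each neuron expresses a single receptor gene and the rest of the family is held in compact heterochromatin. Their genes lie in clusters and mostly carry the whole coding sequence in a single exon. Class I receptors, the OR51, OR52, OR55 and OR56 families, are the branch shared with fish, and class II holds the families that expanded in land vertebrates.

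Nearly all of these genes had no peak at their transcription start site (TSS). In both replicates, 8 of the 172 genes had a peak no farther than 1 kb from a TSS, or 4.65% (95% Wilson interval 2.38 to 8.91%), against 79.3% of all 20033 protein-coding genes and 80.2% of the 1139 other protein-coding genes on chromosome 11. Replicate 1 had such a peak at 8 genes and replicate 2 at 9, which gave a share of 4.94% ± 0.411 (SD, n = 2). The 8 genes were OR51D1 and OR52N2 of class I, and OR10A2, OR8K3, OR5M1, OR9Q1, OR5A2 and OR10G7 of class II. OR2AT4 had a peak in replicate 2 only. The share rests on the distance allowed from the TSS, since it was 1.74% within 100 bp and 9.30% within 3 kb. Any annotated TSS of a gene counted, and 135 of the 172 genes had a single one. Of the other genes of the chromosome, 72.1% and 72.5% had a peak over any TSS in replicates 1 and 2. Over the most 5′ TSS it was 59.0% and 59.3%. All 6 left-out genes with related names were without a TSS peak.

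The upstream sequences of 2 members whose peak lay within 150 bp of the TSS, on its upstream side, show how different these starts are. They are the 200 bases of hg38 just before the TSS, written in the direction of the gene, and capitals mark each CG dinucleotide, the site of DNA methylation. OR52N2 (chr11:5808724-5808923, + strand) has 7 of them and OR10G7 (chr11:124041326-124041525, − strand) has 1.
OR52N2: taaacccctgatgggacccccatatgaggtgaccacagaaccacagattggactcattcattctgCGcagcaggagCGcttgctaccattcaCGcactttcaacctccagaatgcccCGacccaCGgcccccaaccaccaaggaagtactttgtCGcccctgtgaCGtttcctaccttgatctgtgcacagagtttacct
OR10G7: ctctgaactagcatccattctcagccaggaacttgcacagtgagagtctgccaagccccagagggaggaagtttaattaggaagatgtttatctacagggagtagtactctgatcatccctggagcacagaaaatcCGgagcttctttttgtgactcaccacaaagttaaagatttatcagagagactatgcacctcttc
Peaks covered 58 of these bases at OR52N2 in replicate 1 and 197 in replicate 2, and all 200 at OR10G7 in both. Neither stretch overlapped an annotated exon.

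The upstream sequences of 2 members without a peak are shown for the motifs that are typical of olfactory receptor promoters. Both lay before the same start in RefSeq (GRCh38.p14) and in GENCODE, and capitals mark the homeodomain motif TAATTA, which factors such as LHX2 bind, and the TATA box motif TATAAA on either strand. Among members that held both motifs upstream and had no TSS peak, they were the farthest from any peak. OR5L1 (chr11:55811117-55811366, + strand) lay 87847 bp from the nearest peak in replicate 1 and 87838 bp in replicate 2. OR5B12 (chr11:58442237-58442486, − strand) lay 45566 and 45553 bp away.
OR5L1: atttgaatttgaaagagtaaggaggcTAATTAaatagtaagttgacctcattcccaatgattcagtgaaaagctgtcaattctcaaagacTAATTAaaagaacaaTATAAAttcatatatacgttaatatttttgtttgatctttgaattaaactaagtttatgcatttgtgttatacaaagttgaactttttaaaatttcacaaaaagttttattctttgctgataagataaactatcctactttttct
OR5B12: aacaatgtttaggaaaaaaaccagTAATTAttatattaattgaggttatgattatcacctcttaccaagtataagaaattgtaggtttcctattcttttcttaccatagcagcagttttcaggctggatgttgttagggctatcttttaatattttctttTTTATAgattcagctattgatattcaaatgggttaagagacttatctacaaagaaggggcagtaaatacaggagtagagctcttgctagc
The GC content of these stretches was 24.8% at OR5L1 and 32.0% at OR5B12, against 54.0% at OR52N2 and 45.0% at OR10G7. The first pair was chosen for motifs made of A and T only, so these values do not compare members with and without a peak. TAATTA was not particular to members without a peak, since the stretch printed for OR10G7 also holds it, in small letters. Over the 500 bp around the most 5′ TSS, the median GC content was 40.2% for members with a TSS peak in both replicates and 37.4% for the others.

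The lists held 245736 peaks in replicate 1 and 259745 in replicate 2, of which 10551 and 10847 lay on chromosome 11. The height of a peak, the number of reads that the peak caller stacked at its highest base, followed from the deposited fold enrichment over a single background per replicate, 3.35 and 3.52 stacked reads. Only peaks past the threshold of the caller are listed, with heights of 11 or more, so weaker accessibility at a gene without a peak was not detectable. As a check of the label, all 7 luminal epithelial markers (KRT8, KRT18, KRT19, EPCAM, ESR1, GATA3 and FOXA1) had a TSS peak in both replicates and none of the olfactory neuron markers OMP, CNGA2 and RTP1 did. The stromal genes COL1A1, COL1A2 and DCN also had one, and the blood markers PTPRC and CD3E did not.

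The peaks at the 8 members were weak beside those of other genes. Their median fold enrichment was 12.2 in replicate 1 and 12.7 in replicate 2. For the 913 other genes of chromosome 11 with a TSS peak in both, it was 41.6 and 42.2. For the 268 of these whose most 5′ promoter was CpG-poor, it was 27.8 and 27.6. The strongest of the 8 was at OR51D1 (ENSG00000197428.3, chromosome 11, 4637477 to 4643060, + strand). Its peak in replicate 1 ended 88 bp upstream of the TSS and was 98 stacked reads high (exact Poisson 95% interval 79.6 to 119), at a fold enrichment of 22.8. The replicate 2 peak was 111 reads high (91.3 to 134), at a fold enrichment of 24.8. Among all peaks of the same replicate, these fold enrichments were at percentiles 78.7 and 80.9.

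OR52N2 (ENSG00000180988.3, 5808924 to 5821483, + strand) had a peak with a height of 81 (64.3 to 101) in replicate 1 and 86 (68.8 to 106) in replicate 2, with fold enrichments of 18.9 and 19.2. It ended 143 bp upstream of the TSS in replicate 1 and 4 bp upstream in replicate 2. For OR8K3 (ENSG00000280314.4), the peak lay 538 bp upstream in both replicates, with heights of 74 and 87 and fold enrichments of 17.3 and 19.5. At none of these 3 genes did the counting intervals of the replicates separate. 

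OR9Q1 (ENSG00000186509.4) is annotated over a long stretch, from 58023881 to 58181616, and its peak lay inside the gene, 769 bp downstream of the TSS in replicate 1 and 782 bp in replicate 2, with fold enrichments of 14.3 and 15. OR10G7 (ENSG00000182634.9, 124036013 to 124041325, − strand) had the peak closest to its start, which began 1 bp upstream of the TSS in replicate 1 and covered it in replicate 2. Its heights were 43 (31.1 to 57.9) and 46 (33.7 to 61.4), with fold enrichments of 10.1 and 10.4.

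The other 3 genes had peaks at or below the median fold enrichment of all peaks, which was 8.28 in replicate 1 and 7.96 in replicate 2. OR10A2 (ENSG00000170790.6) had fold enrichments of 8.28 and 5.53, from a peak that began 8 and 6 bp downstream of the TSS. OR5M1 (ENSG00000255012.3) had 7.82 and 7.96, from a peak inside the gene 549 and 579 bp downstream. OR5A2 (ENSG00000172324.6) had 4.37 and 3.76, from a peak 434 and 376 bp upstream that ranked at percentiles 11 and 4.76. Only OR5A2 among the 8 failed a −log10 q of at least 10. OR2AT4 (ENSG00000171561.4) had a peak of fold enrichment 5.09 over a TSS in replicate 2, and its nearest peak in replicate 1 was 1402 bp away.

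**Figure D1:**
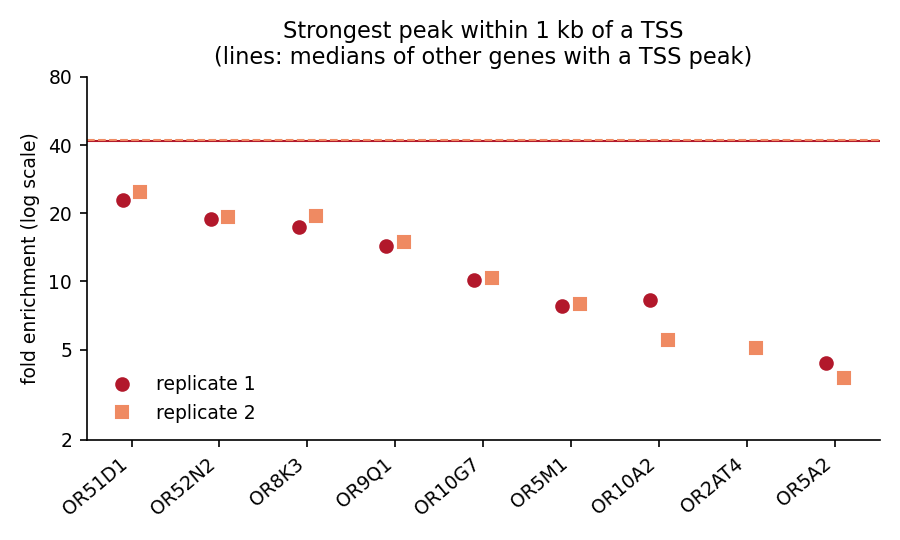
Fold enrichment (log scale) of the strongest peak within 1 kb of a TSS for each olfactory receptor gene that had one, in replicate 1 (circles) and replicate 2 (squares). All points, from 3.76 to 24.8, lie below the horizontal lines, the medians of 41.6 and 42.2 for the 913 other genes of chromosome 11 with a TSS peak in both replicates, and OR2AT4 has a point in replicate 2 only.

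Peak coverage of the olfactory receptor genes was at most 2.33% at positions taken every 250 bp within 5 kb of the most 5′ TSS. Counting only the most 5′ start, replicate 1 had a peak over 0 of the 172 genes and replicate 2 over 2 of them, or 1.16%. Of the 1139 other genes of the chromosome, 59.0% and 59.3% had their TSS under a peak. For the olfactory receptor genes, coverage 500 bp upstream was 1.16% in both replicates.

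**Figure D2:**
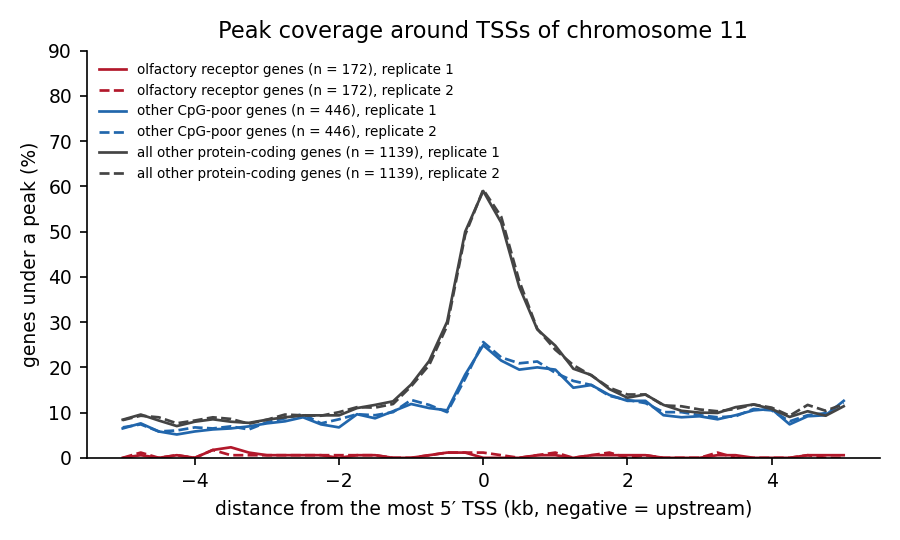
Share of genes under a peak (vertical axis, %) at positions every 250 bp from the most 5′ TSS (horizontal axis, kb). Shown are the 172 olfactory receptor genes, the 446 other CpG-poor genes and all 1139 other protein-coding genes of chromosome 11. Solid lines are replicate 1 and dashed lines are replicate 2. The other genes rise to 59.0% and the CpG-poor genes to 24.9% at the TSS in replicate 1, while the olfactory receptor genes stay at or below 2.33%.

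The share of genes with a peak was close to the share of all bases of these stretches that had one equally near. Inside the clusters of olfactory receptor genes, 4.43% of bases lay within 1 kb of a peak in both replicates, beside 4.65% of the genes. In the rest of chromosome 11 this held for 14.5% of bases, beside 81.0% of the 1115 other genes with their TSSs there. These are descriptions of the 2 lists, and no test was made across genes or bases, which are not replicates.

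The distance to the nearest peak, which needs no limit, gave the same order. The median was 20415 bp in replicate 1 (quartiles 9940 and 40343) and 18657 bp in replicate 2 (8892 and 38113) for the olfactory receptor genes, and 0 bp in both for the other genes of the chromosome. In both replicates, 124 of the 172 genes, or 72.1%, had no peak within 10 kb, against 7.73% of the other genes. The 3 genes farthest from any peak were OR4C46, OR4A8 and OR4A5, which together form a small cluster at 54603069 to 54707902. OR4C46 lay 1295216 bp from the nearest peak in replicate 1 and 753649 bp in replicate 2. For OR4A8 the distances were 1216337 and 674770 bp, and for OR4A5 they were 1192382 and 650815 bp. The replicates differed here because replicate 2 had a peak 14446 bp from OR4A16, whose nearest peak in replicate 1 was 556013 bp away.

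**Figure D3:**
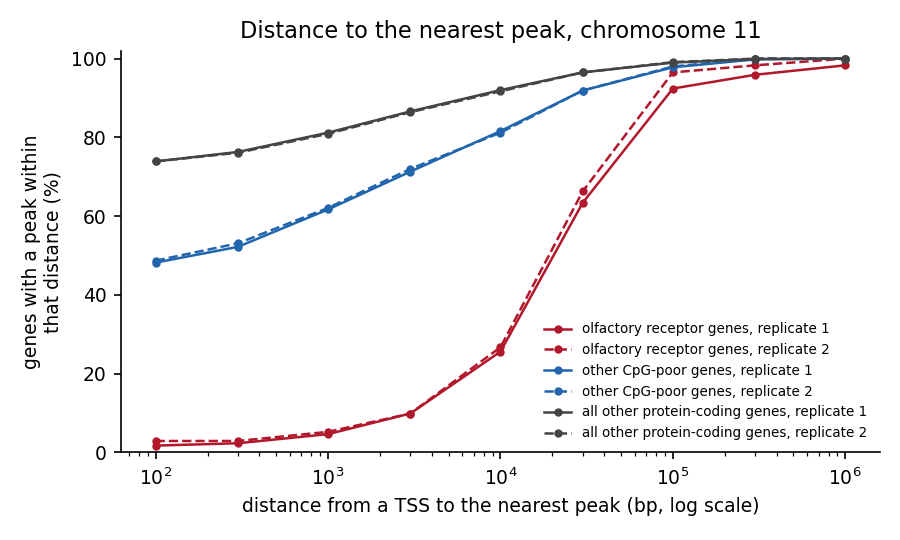
Share of genes of chromosome 11 (vertical axis, %) with a peak within a given distance of a TSS (horizontal axis, bp, log scale), with solid lines for replicate 1 and dashed lines for replicate 2. The curve of the olfactory receptor genes rises mainly between 3 kb (9.88% in both replicates) and 100 kb (92.4% and 96.5%), to the right of the other genes, of which 81.2% and 80.9% are reached within 1 kb.

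Peaks were also sparse around the genes. Members with gaps of at most 500 kb between them formed 10 clusters that hold 171 of the 172 genes and 5.91 Mb of sequence, and OR2AT4 lies alone. Replicate 1 had 123 peaks inside the clusters, or 20.8 per Mb (exact Poisson 95% interval 17.3 to 24.8), and 10428 in the 129 Mb outside, or 81.1 per Mb (79.5 to 82.6). Replicate 2 had 138 peaks, or 23.4 per Mb (19.6 to 27.6), against 83.3 per Mb (81.7 to 84.9). Density inside was 0.269 ± 0.0168 (SD, n = 2) of that outside, and the share of bases covered by peaks was 0.695% and 0.780% inside against 3.84% and 3.93% outside. The ratio was 0.470 when clusters were joined over gaps of up to 1 Mb, which takes in the stretches between them. It was 0.335 without the 5 Mb on each side of CCND1, the cyclin D1 gene at 11q13. The paper reports copy-number aberrations in CAMA-1. Copy number was not measured here, and its part in these densities was not tested. Low densities were not particular to the clusters: of 122 windows of 1 Mb in the rest of the chromosome, 22.1% in replicate 1 and 23.8% in replicate 2 were at or below the density of the clusters.

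The clusters differed among themselves. The class I cluster on 11p, from OR52B4 to OR52W1 (4367263 to 6200186), holds all 55 class I genes and no class II gene, and had 27.3 peaks per Mb (20.2 to 36.0) in replicate 1 and 29.5 (22.1 to 38.4) in replicate 2. The largest class II cluster, with 48 genes from OR4A16 to OR5AK2 (55343201 to 56989843), had 11.5 (6.95 to 18.0) and 14.6 (9.34 to 21.7). The cluster on distal 11q, with 22 genes from OR6X1 to OR8A1 (123753580 to 124582942), had 9.65 (4.16 to 19.0) and 12.1 (5.78 to 22.2). The intervals of the class I cluster and of the distal 11q cluster did not overlap in replicate 1 and overlapped narrowly in replicate 2. The cluster from OR5AN1 to OR10V1 (59358895 to 59713845) had 17 peaks in both replicates, or 47.9 per Mb (27.9 to 76.7), and 3 other genes, OSBP, PATL1 and STX3, have TSSs within it. No peak was called in the cluster from OR4C46 to OR4A5 in either replicate, which at its length of 0.105 Mb allows up to 35.2 per Mb. By class, 2 of 55 class I genes, or 3.64% (1.00 to 12.3%), and 6 of 117 class II genes, or 5.13% (2.37 to 10.7%), had a TSS peak in both replicates, with overlapping intervals.

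**Figure D4:**
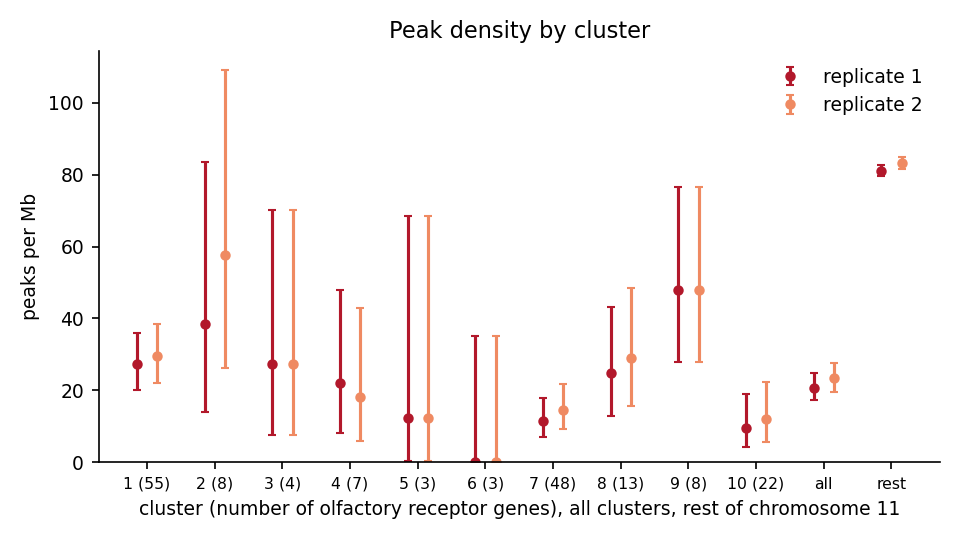
Peaks per Mb (vertical axis) in each of the 10 clusters along chromosome 11, numbered from the short arm with the number of olfactory receptor genes in parentheses, in all clusters together and in the rest of the chromosome. Points are replicates and bars are exact Poisson 95% intervals; clusters 7 and 10, with 48 and 22 genes, lie between 9.65 and 14.6, the rest of the chromosome at 81.1 and 83.3.

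Density was higher just outside the cluster edges than inside them. In the outermost 100 kb inside the clusters it was 22.5 peaks per Mb (15.9 to 30.9) in replicate 1 and 25.5 (18.4 to 34.3) in replicate 2. In the first 100 kb outside it was 43.5 (34.8 to 53.7) and 45.0 (36.1 to 55.4), and from 100 to 200 kb outside 76.5 (64.6 to 89.9) and 79.1 (67.0 to 92.7). The intervals of these 3 bins did not overlap in either replicate. Farther out the density did not keep rising: it was 96.7 and 95.1 from 200 to 300 kb, and 39.8 and 40.6 from 900 to 1000 kb.

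**Figure D5:**
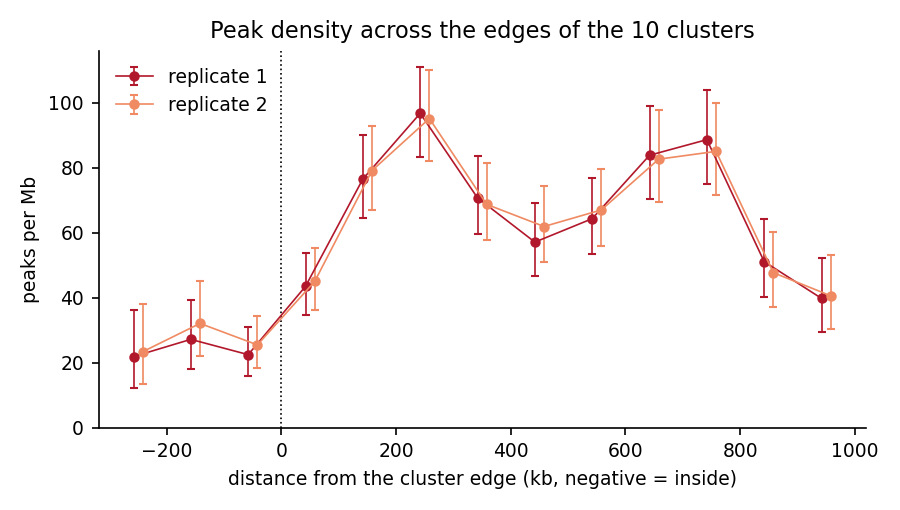
Peaks per Mb (vertical axis) in bins of 100 kb by distance from the edges of the 10 clusters (horizontal axis, kb, negative inside), pooled over all edges, with exact Poisson 95% intervals for each replicate. Values inside lie between 21.9 and 32.1, those from 100 to 300 kb outside between 76.5 and 96.7, and the outermost bin is at 39.8 and 40.6.

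Other protein-coding genes with a TSS inside the clusters had a TSS peak more often than the receptors. Of 24 such genes, 10, or 41.7% (24.5 to 61.2%), had a TSS peak in both replicates, and the same number had one in each. The peak could lie at any TSS of the gene. At STX3, 1 of the 10, the start inside its cluster lay 389 bp from that of OR10V1. OR10V1 lay 32951 bp from the nearest peak in both replicates, so the STX3 peak was at a start outside the cluster. The 5 with the strongest peaks were OSBP, an oxysterol-binding protein, with fold enrichments of 84.7 and 77.6, TRIM5, a restriction factor against retroviruses, with 53.4 and 60.1, TRIM21, an antibody receptor of the cytosol, with 56.4 and 55.3, TRIM34 with 56.1 and 53.5, and PATL1, a factor of mRNA decay, with 47.2 and 44. In the class I cluster, the tripartite motif (TRIM) genes and the beta-globin genes lie among the receptors. Including TRIM51 of a class II cluster, 5 of 8 TRIM genes had a TSS peak in both replicates, and TRIM22, TRIM68 and TRIM51 had none. The 5 include TRIM6-TRIM34, a read-through gene that overlaps TRIM6 and TRIM34, with fold enrichments of 4.83 and 5.31. None of the 5 beta-globin genes HBB, HBD, HBG1, HBG2 and HBE1, which encode hemoglobin chains of red blood cells, had one, with the nearest peak between 3045 and 30811 bp away. The 24 annotated genes are not separate loci, and the interval treats them as separate. HBE1 shares a TSS with the receptor OR51B5, and a gene without a symbol shares one with OR5M3.

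The 5 strongest peaks inside the clusters by mean fold enrichment over both replicates were 4 within 1 kb of starts of these other genes and 1 away from any protein-coding start. The strongest lay at OSBP, from 59615159 to 59616625 in replicate 1, and the next ran from 59549945 to 59551388, between OR4D9 and OSBP and 39127 bp from the nearest protein-coding TSS. It had heights of 277 (245 to 312) and 291 (259 to 326) and fold enrichments of 64 and 64.6, at percentiles 94.9 and 95 of all peaks. Peaks at TRIM5 and TRIM21 and near TRIM34 followed. The midpoint of the peak near TRIM34 lay 1362 bp from the nearest TSS in replicate 1, so it did not lie over a start.

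The peaks inside the clusters were about as strong as those elsewhere on the chromosome. The median fold enrichment was 8.97 inside and 8.28 outside in replicate 1, and 7.96 and 8.18 in replicate 2. Of the peaks inside, 94.3% in replicate 1 and 84.8% in replicate 2 overlapped a peak of the other replicate, against 89.5% and 87.1% outside. They were somewhat narrower, with median widths of 264 and 256 bp against 308 and 312 bp. Most lay between genes, 53.7% and 55.8% inside against 33.7% and 34.0% outside, and in replicate 1, 9.76% lay within 1 kb of a TSS of a protein-coding gene that is no olfactory receptor, against 20.6% outside. Over all members, 5 had a peak over an exon in both replicates, and the strongest was at OR52K1, a class I gene, with fold enrichments of 28.8 and 32.9. These 5 include OR2AT4, which lies outside the clusters. Its exon peaks were at different places, 75082738 to 75082887 in replicate 1 and 75096382 to 75096936 in replicate 2.

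The CTCF motif was found in 5.69% (2.78 to 11.3%) of peaks inside the clusters and 3.56% (3.22 to 3.93%) of peaks outside in replicate 1, and in 5.80% (2.97 to 11%) and 3.51% (3.18 to 3.88%) in replicate 2, with overlapping intervals. CTCF is the factor that holds chromatin loops. The forkhead (FOX) motif TGTTTAC was found in 14.6% (9.46 to 21.9%) inside and 8.06% (7.56 to 8.60%) outside in replicate 1, and in 12.3% (7.84 to 18.8%) and 8.09% (7.59 to 8.62%) in replicate 2. In replicate 1 these intervals were separate and in replicate 2 they overlapped. Its letters in reverse order, CATTTGT, were found in 8.94% and 6.66% in replicate 1, and the peaks inside had a lower GC content, with medians of 45.4% against 52%. The AP-1 motif TGANTCA differed less, with 15.4% and 16% in replicate 1. Both strands were searched, the whole peak was read, and a match is not a bound site.

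Base composition set the olfactory receptor promoters apart from most others. CpG observed/expected, the number of CG dinucleotides divided by that from the C and G content, had a median of 0.140 over the 500 bp around the most 5′ TSS of the 172 genes and 0.643 for the other genes of the chromosome. Promoters under 0.48, called CpG-poor here, were 96.5% of the olfactory receptor promoters and 39.2% of the others. Of the 446 other genes with a CpG-poor most 5′ promoter, 268, or 60.1% (55.5 to 64.5%), had a TSS peak in both replicates. Of the 166 such olfactory receptor genes, 7, or 4.22% (2.06 to 8.45%), did. The peak could lie at any TSS of the gene, so these are not shares of open CpG-poor promoters. At the most 5′ TSS itself, 24.9% and 25.6% of the 446 lay under a peak in replicates 1 and 2. For all 172 olfactory receptor genes it was 0% and 1.16%. These groups were not alike in composition, with a median GC content of 50.6% for the other CpG-poor promoters and 37.4% for those of the olfactory receptor genes, and the part of composition in the difference was not tested. Of the other genes with a TSS inside the clusters, 4 of the 18 with a CpG-poor most 5′ promoter, or 22.2% (9 to 45.2%), had a TSS peak. All 6 of the rest did. The 4 include STX3, whose peak lay at a start outside its cluster. The olfactory receptor genes with a peak included those with the highest and the third highest promoter GC content of the family on chromosome 11, OR51D1 with 58.8% and OR52N2 with 54.8%, against a median of 37.4%. The other 6 ranged from 32.8% at OR10G7 to 43.2% at OR5A2, so a peak also occurred at AT-rich starts.

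Olfactory receptor genes have near-identical copies, to which an aligner cannot assign short reads, so words of 100 bases that recur in the genome were counted. Within 1 kb of the TSSs, a median of 0% of words recurred elsewhere in hg38, at most 14.4% did at any olfactory receptor gene, and 136 of 172 genes had none. Among the 1139 other genes, 10 had over 50% recurring words. Exact repeats of this length were scarce at the olfactory receptor starts. Copies with a mismatch within each word were not counted, so the count cannot show how well an aligner could place reads there. A further limit is the annotation, since the median length of the annotated genes was 1082 bp and 135 of 172 had a single TSS, so an annotated start may be that of the coding exon, and for how many genes this holds was not tested.

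Of the 172 genes, 133 matched a promoter in the RefSeq table, which runs from 250 bases before to 50 after the start. TAATTA was found in 31 of these, or 23.3% (16.9 to 31.2%), against 3.27% (3 to 3.57%) of 15361 promoters of all protein-coding genes. Its letters in reverse order, ATTAAT, were found in 14.3% (9.34 to 21.2%) and 3.30%. TATAAA was found in 35.3% (27.7 to 43.8%) against 9.62%, and its reverse, AAATAT, in 42.1% (34.1 to 50.6%) against 8.89%. CCCNNGGG, the core bound by EBF factors, was found in 7.52% (4.14 to 13.3%) against 21.8%, and its reverse, GGGNNCCC, in 2.26% (0.770 to 6.42%) against 19.4%. Among 281 promoters of the other CpG-poor genes of chromosome 11, TAATTA was found in 6.05% (3.81 to 9.47%) and ATTAAT in 5.69%. TATAAA was found there in 18.9% (14.7 to 23.8%), AAATAT in 12.1%, CCCNNGGG in 23.1% and GGGNNCCC in 18.9%. The median GC content was 37.0% for the olfactory receptor promoters, 63.0% for all and 55.3% for these 281. Its part in these shares was not tested. Both strands were searched in each case.

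The same family elsewhere in the genome and its pseudogenes were also mostly without peaks. Of 228 olfactory receptor genes on other chromosomes, 23, or 10.1% (6.82 to 14.7%), had a TSS peak in both replicates, and of the 227 with no TSS of another protein-coding gene within 3 kb, 22, or 9.69% (6.49 to 14.2%), did. Their median distance to a peak was 12278 bp in replicate 1 and 10749 bp in replicate 2. On chromosome 11, 7 of 194 olfactory receptor pseudogenes, or 3.61% (1.76 to 7.26%), had one, the strongest at OR51A8P with fold enrichments of 15 and 13.5.

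Most genes that serve olfactory receptors in the neuron did have a peak at their start. Of 21 genes of odorant signalling, receptor transport and receptor choice, 15 had a TSS peak in both replicates, beside the 79.3% of all protein-coding genes, so their count is near the background. Among them were the signalling genes CNGA4, a channel subunit encoded on chromosome 11 outside the clusters, with fold enrichments of 97.6 and 88.2, ADCY3, the adenylyl cyclase of the cilia, with 74.1 and 71.2, and GNAL, the olfactory G protein alpha subunit, with 26.9 and 30.5. REEP1, which helps receptors reach the cell surface, had 89.7 and 105. LHX2 and its cofactor LDB1, which act on enhancers of receptor genes, had 77.1 and 88.2 and 67.4 and 63.2. The 6 genes without a TSS peak in both replicates were OMP, the marker of mature olfactory neurons, CNGA2, RTP1, EBF2, EBF3 and EMX2, and RTP1 had a peak of fold enrichment 4.42 in replicate 2 only. Many of these genes also act in other tissues.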

How the data were processed

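ATAC-seq peaks of 2 CAMA-1 replicates were analysed. Per the labels (the submitters' processing notes) and the study's methods, the authors trimmed reads (Trim Galore 0.6.5), aligned them (Bowtie2 2.3.5.1, hg38) and called peaks in each replicate (MACS2 2.2.6). Duplicate removal, mapping quality filters and caller settings are not given in the sources used here. The deposited columns give per peak a score (10 times the −log10 q-value, cut to a whole number), the fold enrichment as a ratio to the background, and the −log10 p-value and −log10 q-value, without read counts. The paper's supplement lists total sequences per library, more for replicate 2 than for replicate 1. How many reads remained for peak calling is unknown here. No peak exceeded an hg38 chromosome. Heights were taken from the step between fold enrichments. A gene had a TSS peak if a peak edge lay within 1 kb of any annotated TSS, and a peak belonged to a cluster by its midpoint. Peaks overlapped with at least 1 bp. CpG windows ran from 400 bp before to 100 bp after the TSS. Wilson and Poisson intervals cover counting error only. With a single condition, no test was made. Members and lists were chosen with earlier results of these data known. The FOX and AP-1 motifs, reversed motifs, edge bins and bases near peaks were added after the data were seen. Genes were named if they had a TSS peak, were among the 3 farthest from any peak or the 5 strongest others inside clusters, or were on a list. OR52K1, OR4A16, OR51A8P and the 4 printed sequences were chosen after their values were seen. A marker gene and a sequence are not reported here. Functions were tested on simulated data. Python 3.11.15, numpy 2.4.6, pandas 2.3.3, scipy 1.17.1, numba 0.67.0 and matplotlib 3.10.9 were used.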

Additional observations from a re-analysis of the deposited data

How the results depend on the processing

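A TSS peak called in both replicates was found at 4.65% of the olfactory receptor genes. It was 1.74% within 100 bp, 9.30% within 3 kb and 4.07% with a −log10 q of at least 10, and from 4.65% to 5.23% with a single replicate. The density ratio of 0.269 was 0.286 with that q, 0.287 over peaks more than 1 kb from every protein-coding TSS, 0.190 for covered bases, 0.335 without the surroundings of CCND1 and 0.470 with clusters joined within 1 Mb, and from 0.257 to 0.280 with a single replicate. The median distance to a peak, 19536 bp as the mean of the replicates, was 24322 bp with that q and from 18657 to 20416 bp with a single replicate. For other genes inside the clusters, the share of 41.7% was 50.0% within 3 kb, 37.5% with that q, 29.2% with the most 5′ TSS only and 58.5% with clusters joined within 1 Mb, and 41.7% with either replicate alone. The remaining alternatives moved these 4 results by less than the spread between replicates, and why the others changed was not examined: the cause was not tested. No paired analysis was possible because the study has a single condition, which leaves no groups to pair. Signals below the threshold of the peak caller were not seen, and with 2 replicates the SDs are rough.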
